A study of Mus musculus with 10 samples.

Results

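Gene expression in both macrophage types of the mouse mammary gland was set against that in all of its dendritic cells. Each of the 5 populations had equal weight, and a gene was taken where ductal and stromal macrophages both lay on the same side of every dendritic cell population. Of 15681 genes tested, 232 met this with a test of all 6 pairs of populations: 129 lay below and the others above. The comparison used all 10 libraries of the series, 4 of macrophages and 6 of dendritic cells.

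RNA-seq libraries had been made from cells freshly sorted from the mammary tissue of virgin adult females of the C57BL/6 strain, with no transgene and no treatment named. The macrophages were ductal or stromal, and the dendritic cells were CD11b-CD103+ (here CD103+), CD11b-CD103- (here CD103-) or CD11b+, each population with 2 biological replicates. Whether a replicate was 1 mouse or a pool is not stated in the labels, and neither is the full gate of each sort. CD11b and CD103 are integrin chains encoded by Itgam and Itgae.

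Macrophages and dendritic cells are both mononuclear phagocytes. Macrophages stay in the tissue, engulf dying cells and debris, digest them in lysosomes and recycle their lipid and iron, and depend on the growth factor receptor CSF1R. Conventional dendritic cells arise from precursors that need the receptor FLT3, take up antigen, migrate to lymph nodes through CCR7 and activate T cells. In the mammary gland, macrophages lie along the ducts and in the surrounding connective tissue.

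Totals ran from 5636092 to 23093742 counts per library, lowest in the ductal macrophages (5636092 and 6388106) and in replicate 2 of the CD11b+ dendritic cells (5745085). Mitochondrial genes took 24.8% and 23.1% of counts in the stromal macrophages, 0.631% and 0.891% in the ductal macrophages and 1.88% to 6.29% in the dendritic cells. Levels are CPM, counts scaled to the TMM-adjusted library total of the tested genes. Summed CPM of markers of other cells overlapped between macrophages and dendritic cells for luminal epithelium (232 to 2135 against 430.2 to 1594) and fibroblasts (415 to 1598 against 289 to 911). Adipocyte markers were highest in the stromal libraries (258 and 245), against 1.82 and 8.89 in ductal and 3.71 to 63.1 in dendritic libraries. Mast cell markers were also highest there (164 and 58.2), against 0.683 and 4.16 in ductal and at most 10.6 in dendritic libraries. B cell markers were highest in CD103- replicate 2 (280) and at most 34.5 elsewhere. Plasmacytoid dendritic cell markers were higher in the macrophage libraries (464 to 691 against 155 to 218) and T cell markers lower (0.520 to 3.97 against 5.21 to 9.42). Monocyte markers were lower in the ductal libraries (95.4 and 67.3) than in all dendritic libraries (305 to 1444), whereas the stromal libraries (366 and 360) overlapped the dendritic ones. Neutrophil markers reached at most 0.552 CPM in any library. A part of these cells, or of RNA quality, in the results was not tested.

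The genes called on 1 side formed a small share of those that differed on average. In the same-side test the largest of the 6 p-values from edgeR's quasi-likelihood fit was used, with Benjamini-Hochberg adjustment over all genes, and 0.657% of genes were called above and 0.823% below. The contrast of the macrophage mean with the dendritic mean called 2552 genes higher (16.3%) and 2625 lower (16.7%), which included all 232. In every one of the 232 the macrophage and dendritic libraries did not overlap in CPM; over all genes this held for 896 above (5.71%) and 1035 below (6.6%). The median difference of the means was 4.08 log2 units for the genes above and -3.39 for those below, and their median smallest difference over the 6 pairs was 2.65 and -2.33.

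The call was strict, and it moved with single libraries. The counts above and below were 66 and 49 when ductal replicate 1 was left out, 47 and 58 when CD11b+ replicate 1 was, 56 and 68 when CD11b+ replicate 2 was, and 65 and 64 when CD103+ replicate 2 was. Leaving out ductal replicate 2 gave 62 below. With each of the 10 libraries left out in turn, 34 of the genes above and 33 of those below were called every time. In simulated counts, 8-fold changes were recovered by the same-side test in 90% of genes but 4-fold changes in 12%, while the contrast of means recovered 100% of both. The contrast of means also called 12 unchanged genes, and the same-side test 0. The simulation gave all genes 1 spread and made the populations of each side alike. These data are not so, and the simulated shares do not carry over to them. A gene that missed the same-side test is not shown to be alike in the populations.

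CD11b+ dendritic cells were most often the nearest dendritic population. Among the genes above the smallest difference involved them in 60, CD103+ cells in 28 and CD103- cells in 15, and among the 129 below the numbers were 61, 51 and 17. Stromal macrophages were the nearer macrophage type for 63 of the genes above and ductal macrophages for 40. Among the genes below the numbers were close, 69 and 60. The 2 macrophage types also differed from each other in 46.6% of the genes above and 38.8% of those below, against 30.6% of all genes tested.

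**Figure D1:**
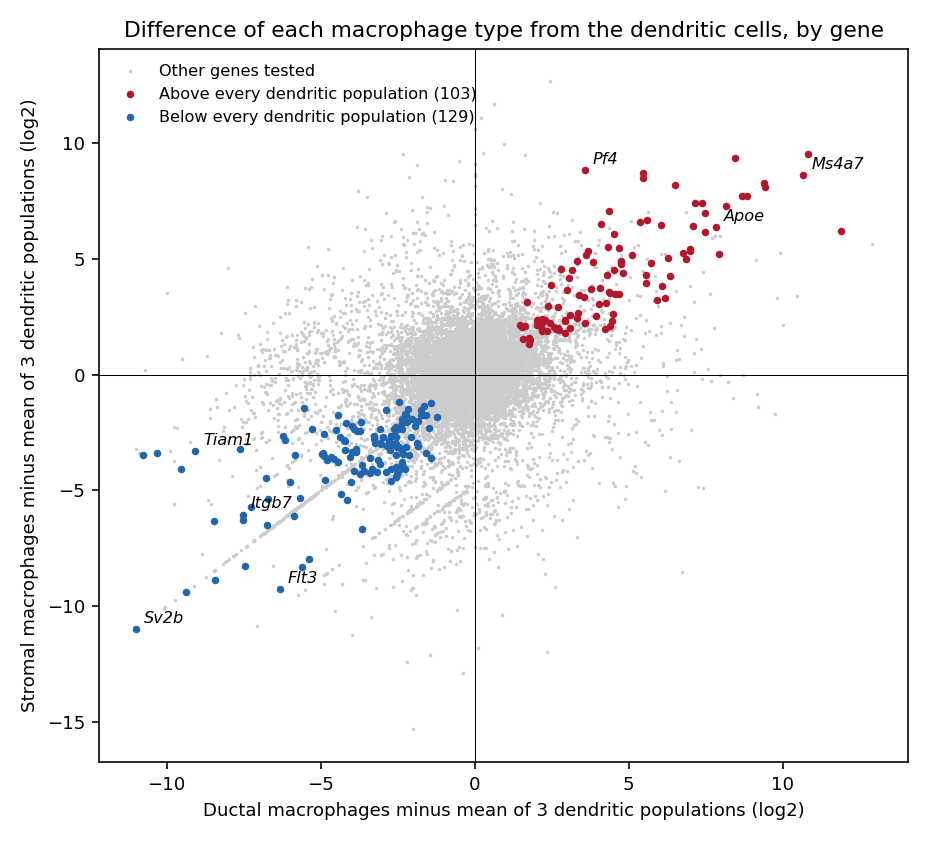
Difference of ductal (x axis) and stromal macrophages (y axis) from the mean of the 3 dendritic populations, in log2 units, with 1 point per gene. The genes above every dendritic population (red) lie in the upper right and the 129 below (blue) in the lower left, and many lie away from the diagonal because the 2 macrophage types differ.

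The well known genes of each lineage checked the labels. Fcgr1 (gene ID 14129, protein coding, on GRCm38 chromosome 3 from 96282909 to 96293969), the high-affinity IgG receptor CD64, stood at 103.4 and 152 CPM in ductal libraries and 131 and 123 CPM in stromal libraries, and at 1.15 and 0.554 CPM in CD103+ libraries, 0 and 0.317 CPM in CD103- libraries and 2.54 and 2.69 CPM in CD11b+ libraries. The groups were far apart and both macrophage types alike, with a difference of the means of 7.39 ± 0.32 log2 units (SE; this and later differences are macrophage minus dendritic) and a smallest difference of 5.61 (edgeR, same-side adjusted p = 0.000257). Mertk, a receptor for dying cells, was also above all 6 dendritic libraries. It ranged over 25.4 to 63.8 CPM in macrophages and 1.49 to 10.9 CPM in dendritic cells. Its difference of means, 3.20 ± 0.38, passed the contrast of means (edgeR adjusted p = 8.52e-05) but the same-side test did not call it (adjusted p = 0.142). Cd68, a lysosomal membrane protein, ran from 709.7 to 1207 CPM against 165 to 468 CPM, with a smallest difference of 0.79 (same-side adjusted p = 0.584).

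F4/80 and the CSF1 receptor did not separate stromal macrophages from CD11b+ dendritic cells. Adgre1, which encodes F4/80, stood at 1045 and 828 CPM in ductal libraries and 386 and 231 CPM in stromal libraries, and at 4.96 and 5.07 CPM in CD103+ libraries, 4.35 and 1.49 CPM in CD103- libraries and 331 and 253 CPM in CD11b+ libraries. Csf1r reached 4317 and 3427 CPM in ductal macrophages, 614 and 359 CPM in stromal macrophages and 551 and 566 CPM in CD11b+ dendritic cells, and 42.6 and 16 CPM and 19.1 and 10.8 CPM in CD103+ and CD103- cells. The stromal and CD11b+ libraries of both genes overlapped, although their differences of means were 5.06 ± 0.28 and 4.46 ± 0.31 (edgeR adjusted p = 5.42e-07 and 2.05e-06).

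Of the dendritic genes, Flt3 (gene ID 14255, protein coding, on GRCm38 chromosome 5 from 147330741 to 147400489) stood at 1.14 and 2.27 CPM in ductal libraries and 0.442 and 0 CPM in stromal libraries, and at 314 and 520.2 CPM in CD103+ libraries, 416 and 342 CPM in CD103- libraries and 16.8 and 18.1 CPM in CD11b+ libraries. CD11b+ cells lay well below the other dendritic cells and above both macrophage types. The difference of the means was -7.78 ± 0.43 (edgeR adjusted p = 5.42e-07), and the smallest difference -3.32 passed the same-side test (adjusted p = 0.0151), but not without CD11b+ replicate 1 or 2 or ductal replicate 1 or 2 (adjusted p 0.0833 to 0.232). Bcl11a, a transcription factor of early dendritic development, stood at 0 and 0.189 CPM in ductal libraries and 0.386 and 0.693 CPM in stromal libraries and 4.85 to 26.6 CPM in dendritic cells, and passed at -3.45 (same-side adjusted p = 0.00725), but not without CD11b+ replicate 1 or ductal replicate 1 (adjusted p 0.0588 to 0.0791). Zbtb46, the transcription factor of conventional dendritic cells, stood at 1.59 to 7.62 CPM in macrophages and at 19.2 and 8.98 CPM in CD11b+ cells against 55.9 and 60.9 CPM and 75.8 and 61.3 CPM in CD103+ and CD103- cells, with a same-side adjusted p of 0.366.

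Several markers lay on no side and differed between the macrophage types. Dpp4, a membrane peptidase, stood at 169.9 and 115 CPM in ductal libraries and 14.2 and 10.5 CPM in stromal libraries, with 60.0 to 403 CPM in dendritic cells. Kmo, an enzyme of tryptophan breakdown, was near 0 in ductal libraries (0 and 0.189 CPM) but at 80.6 and 79.3 CPM in stromal libraries, within the 12.6 to 88.7 CPM of the dendritic cells. Itgax, which encodes CD11c, was highest in ductal macrophages (847 and 610.2 CPM) and almost absent from stromal ones (0.166 and 0.231 CPM), with 77.5 to 162 CPM in dendritic cells. Its difference of means of -3.28 ± 0.27 therefore describes neither type, and turned to 1.59 when the libraries were fitted as 2 groups. The sorting marker genes followed the dendritic labels: Itgam stood at 701 and 556 CPM in CD11b+ cells and at most 11.4 CPM in both CD11b- populations, and Itgae at 158 and 172 CPM in CD103+ cells and 9.39 and 3.80 CPM in CD103- cells.

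**Figure D2:**
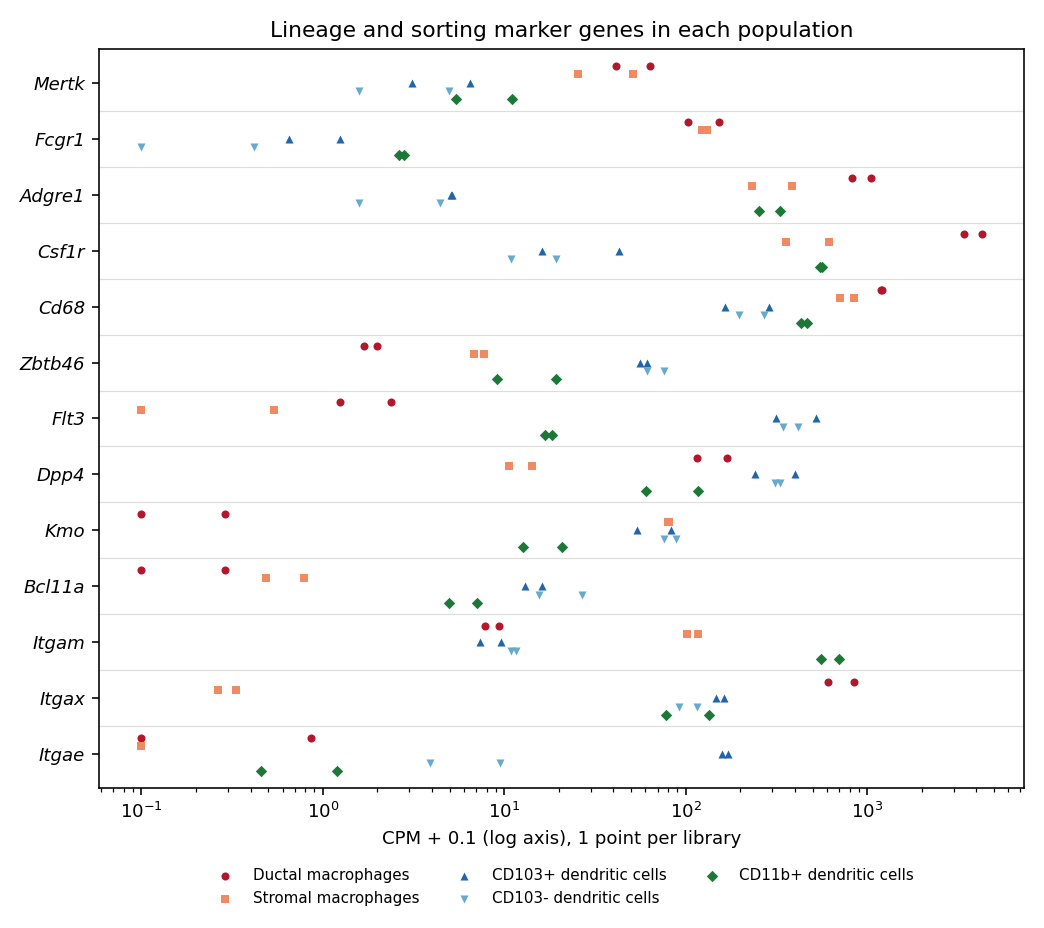
CPM + 0.1 on a log axis of 13 lineage and sorting marker genes, with 1 point per library and the 5 populations by colour and shape. Fcgr1 separates both macrophage types from all dendritic cells, whereas Adgre1 and Csf1r of stromal macrophages lie at the level of CD11b+ dendritic cells and Itgax, Dpp4 and Kmo differ between the macrophage types.

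The core lists split the same way. They include the lineage genes named above and were chosen with earlier results of these data known, so they are not separate support for that split. Of 37 macrophage core genes, 35 were higher and 0 lower in the contrast of means (median 2.82 log2 units, against -0.05 over all genes tested), and of 33 dendritic cell core genes, 0 were higher and 31 lower (median -3.44). In the same-side test 7 macrophage core genes passed and 6 dendritic core genes, which fell to 4 and 3 without CD11b+ replicate 1 or without CD11b+ replicate 2, and to 6 and 3 without ductal replicate 1 or without ductal replicate 2. With all libraries, these same-side shares were 18.9% and 18.2%, against 0.657% of all genes above and 0.823% below. By limma-voom 8 macrophage core genes passed but only 1 dendritic core gene, and Flt3, Bcl11a and Jaml lost their call. CD11b+ cells had the highest dendritic mean for 32 of the 37 and the lowest for 28 of the 33. Stromal macrophages had the lower macrophage mean for 29 of the 37. They had the higher one for 15 of the 33, and ductal macrophages for 18. All macrophage means lay on the list's side of all dendritic means in 27 of the 37 and 16 of the 33 genes. In all this, fewer cells of a type and less RNA per cell cannot be told apart in bulk libraries.

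**Figure D3:**
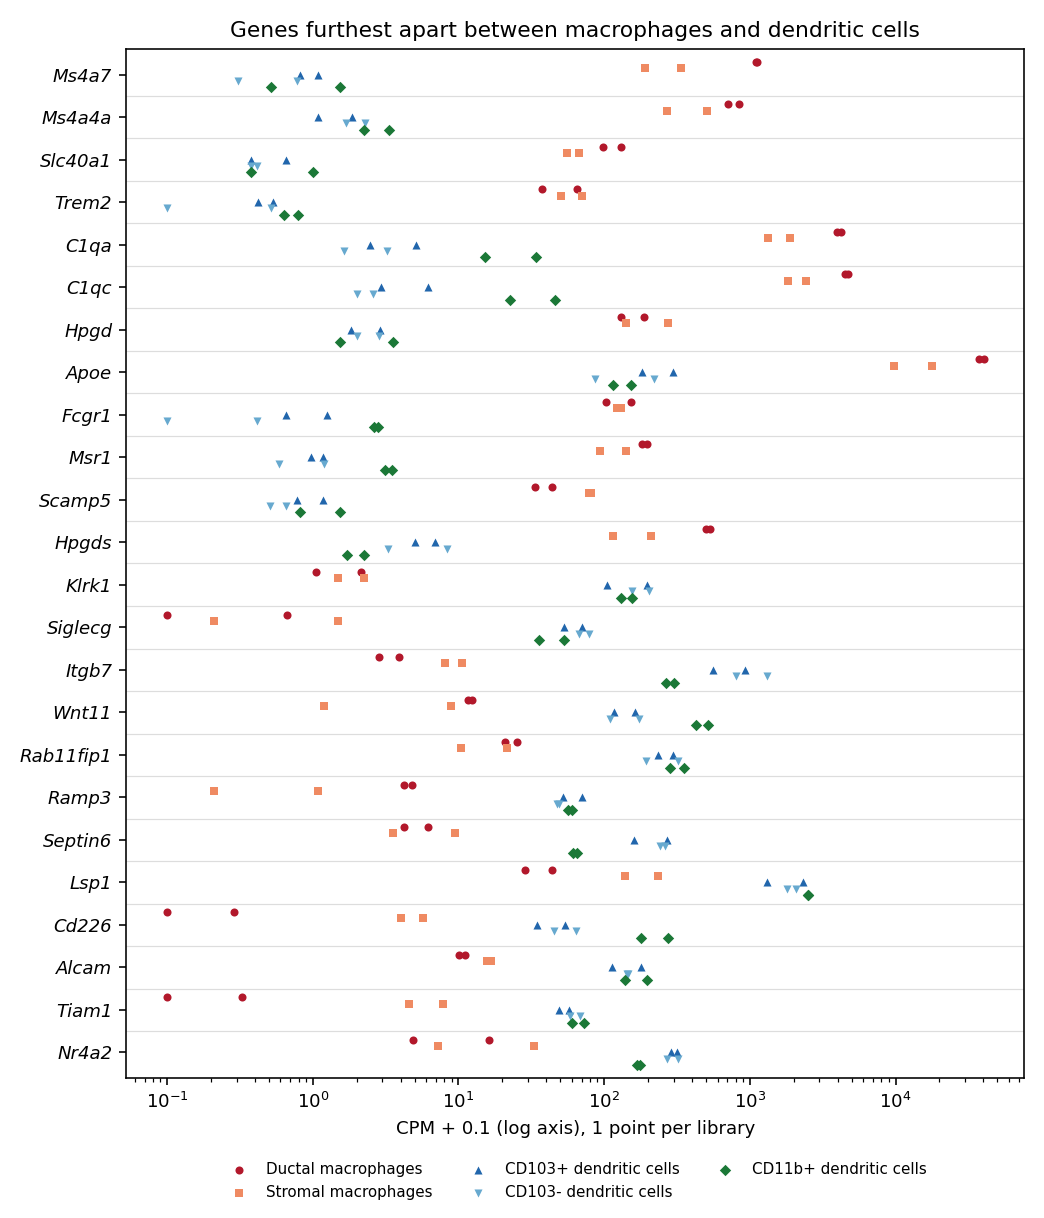
CPM + 0.1 on a log axis of the 12 genes furthest above (Ms4a7 to Hpgds) and the 12 furthest below (Klrk1 to Nr4a2) every dendritic population among those with at least 30 CPM in every library of the higher side, with 1 point per library. Only genes in which the 4 macrophage libraries do not overlap the 6 dendritic libraries were eligible.

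Ms4a7 (gene ID 109225, protein coding, on GRCm38 chromosome 19 from 11321039 to 11336146), a membrane protein of the CD20 family known from macrophages, was furthest apart among the named genes that lay above. It stood at 1109.8 and 1120.1 CPM in ductal libraries and 335 and 191 CPM in stromal libraries, and at 0.715 and 0.990 CPM in CD103+ libraries, 0.207 and 0.678 CPM in CD103- libraries and 0.413 and 1.44 CPM in CD11b+ libraries. The groups were far apart, and the ratio of the macrophage to the dendritic mean was 931. The difference of the means was 9.63 ± 0.35 and the smallest difference 8.25 (edgeR, same-side adjusted p = 8.36e-05). Its neighbour Ms4a4a stood at 845 and 706 CPM in ductal libraries and 505 and 271 CPM in stromal libraries, and at 1.75 and 0.990 CPM in CD103+ libraries, 1.59 and 2.17 CPM in CD103- libraries and 2.13 and 3.23 CPM in CD11b+ libraries, with a smallest difference of 7.24 (adjusted p = 8.36e-05).

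The Ms4a genes lie together on chromosome 19. Of 14 genes tested within 300 kb of Ms4a7, 11 belong to the family, and 6 of these were above every dendritic population: Ms4a14, Ms4a7, Ms4a4a, Ms4a6c, Ms4a6b and Ms4a6d. None was below. Ms4a14 stood at 24.7 to 116 CPM in macrophages and 0 to 0.475 CPM in dendritic cells, and Ms4a6b at 294 to 505 CPM and 11.8 to 17.8 CPM. Ms4a6d stood at 205 to 366 CPM and 2.67 to 28.0 CPM, and Ms4a6c at 247 to 492 CPM and 45.1 to 104 CPM. The Ms4a6 genes are close copies, so the counting could have divided reads between them, and their separate values are uncertain. Members between and beside them were not called: Ms4a1, the B cell gene for CD20, had a difference of -1.76 ± 0.63 (edgeR adjusted p = 0.0533), and Ms4a4c one of 0.77 ± 0.31 (adjusted p = 0.0835). The family was described after its values were seen.

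**Figure D4:**
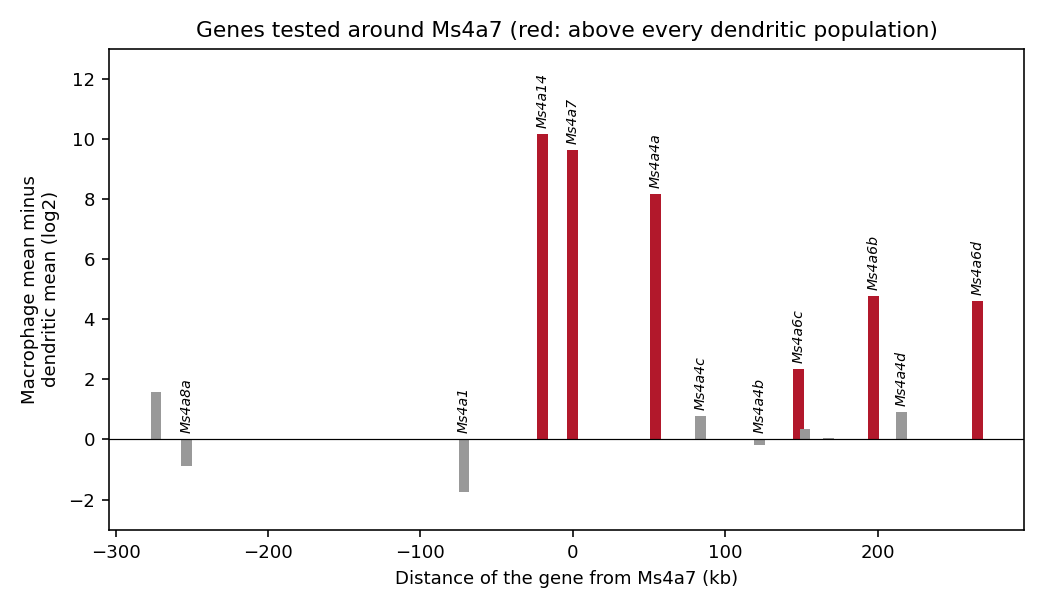
Difference of the macrophage mean from the dendritic mean (log2) for the 14 genes tested around Ms4a7, against distance from it in kb. Red bars mark the 6 genes above every dendritic population, which lie among grey bars of members that were not called.

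Complement genes had the largest share of members above of the 22 lists, 41.2% against 0.657% of all genes. The complement cascade tags particles and dying cells for uptake, and C1q, its first component, is made largely by macrophages. Of 17 genes tested, 13 were higher and 0 lower in the contrast of means (median 3.60), and 7 passed the same-side test: C1qa, C1qb, C1qc, Cfb, C3ar1, C5ar1 and C5ar2. The 7 became 4 without CD11b+ replicate 2, and 5 to 7 without any other single library. C1qa stood at 4254 and 3952 CPM in ductal libraries and 1874 and 1329 CPM in stromal libraries, and at 5.0 and 2.38 CPM in CD103+ libraries, 3.11 and 1.54 CPM in CD103- libraries and 15.1 and 34.1 CPM in CD11b+ libraries. C1qc stood at 4753 and 4525 CPM in ductal libraries and 2448 and 1834 CPM in stromal libraries, and at 6.03 and 2.85 CPM in CD103+ libraries, 2.49 and 1.90 CPM in CD103- libraries and 22.4 and 45.8 CPM in CD11b+ libraries. C1qb reached 1546 to 4152 CPM in macrophages, 80.5 and 153 CPM in CD11b+ dendritic cells and at most 4.57 CPM in the others. The 3 chains, encoded side by side on chromosome 4, thus shared their order, with ductal macrophages highest and CD11b+ cells the highest dendritic population. Their smallest differences were 6.05, 4.0 and 5.99 (edgeR, same-side adjusted p = 0.000427, 0.000520 and 0.000237). C5ar1, a receptor for the complement fragment C5a, ranged over 427 to 774 CPM in macrophages and 0.588 to 49.4 CPM in dendritic cells (smallest difference 3.60, adjusted p = 0.00241), and was not called without CD11b+ replicate 2 (adjusted p = 0.0539). Its neighbour C5ar2 was low in all libraries (4.14 to 11.3 CPM against 0.0396 to 0.271 CPM), and its call (adjusted p = 0.0147) was lost without CD103- replicate 1, CD11b+ replicate 1 or 2 or ductal replicate 1 or 2 (adjusted p 0.0557 to 0.211).

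Receptors for antibody and microbes and scavenger receptors were mostly higher in the macrophage mean, but few passed the same-side test. Of 7 Fc receptor genes, 6 were higher (85.7%, against 16.3% of all genes) and 0 lower. Only 1 of them, Fcgr1, passed the same-side test (14.3%, against 0.657% of all genes). Of 17 pattern recognition receptors, 12 were higher (70.6%, against 16.3% of all genes) and 2, Tlr3 and Tlr11, lower (11.8%, against 16.7%). Msr1, the scavenger receptor SR-A, stood at 195 and 181 CPM in ductal libraries and 142 and 93.8 CPM in stromal libraries, and at 0.873 and 1.07 CPM in CD103+ libraries, 0.483 and 1.08 CPM in CD103- libraries and 3.37 and 3.05 CPM in CD11b+ libraries. Its levels in both macrophage types were similar, and its smallest difference was 5.18 (edgeR, same-side adjusted p = 8.36e-05). Of 11 scavenger receptor genes, 7 were higher (63.6%, against 16.3% of all genes) and 1, Scarb1, lower. Msr1 and Stab1 were the 2 that passed the same-side test (18.2%, against 0.657%). Stab1, an endothelial and macrophage scavenger receptor, stood at 592 and 471 CPM in ductal libraries and 137 and 111 CPM in stromal libraries and 2.06 to 17.4 CPM in dendritic cells (difference 5.30 ± 0.34); its same-side call (adjusted p = 0.00822) was lost without CD103+ replicate 2 (adjusted p = 0.103).

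Tlr7 and Tlr1, sensors of RNA and of bacterial lipopeptide, were the pattern receptors called on 1 side. Tlr7 stood at 355 and 339 CPM in ductal libraries and 200.1 and 75.0 CPM in stromal libraries and 0 to 10.9 CPM in dendritic cells, a difference of 6.83 ± 0.50 (edgeR adjusted p = 2.82e-06). Tlr1 stood at 37.8 to 129 CPM and 0.414 to 4.06 CPM, a difference of 4.94 ± 0.37 (adjusted p = 3.35e-06). Neither same-side call held throughout: that of Tlr7 (adjusted p = 0.0179) was lost without CD11b+ replicate 1 or 2 or ductal replicate 1 or 2 (adjusted p 0.0612 to 0.246), and that of Tlr1 (adjusted p = 0.0113) without CD103+ replicate 2 or CD11b+ replicate 1 or 2 (adjusted p 0.0523 to 0.159). Of 15 genes for the engulfment of dead cells, 6 were higher (40%) and 3, Timd4, Itgb3 and Lrp1, lower (20%). Over all genes these shares were 16.3% and 16.7%, so the lower share was near that of all genes.

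Among cytokine and growth factor receptors, 6 of 14 genes were higher (42.9%, against 16.3% of all genes) and 5 lower (35.7%, against 16.7%). Csf3r, the receptor for the granulocyte factor G-CSF, stood at 169.5 and 135 CPM in ductal libraries and 24.7 and 20.9 CPM in stromal libraries, and at 0.278 and 0.198 CPM in CD103+ libraries, 0.829 and 0.317 CPM in CD103- libraries and 1.58 and 1.98 CPM in CD11b+ libraries. Ductal macrophages were highest by 2.74 ± 0.31 log2 units over stromal ones, and the smallest difference from a dendritic population was 3.72 (edgeR, same-side adjusted p = 0.000618). Tgfbr2, a subunit of the TGF-beta receptor, ranged over 146 to 423 CPM in macrophages and 30.1 to 70.2 CPM in dendritic cells (difference 2.56 ± 0.18). Its same-side call (adjusted p = 0.0239) was lost without CD103+ replicate 1 or 2, CD11b+ replicate 1 or 2, ductal replicate 1 or 2 or stromal replicate 1 (adjusted p 0.0624 to 0.201). The lower receptors were Flt3, Kit and the subunits Csf2ra, Csf2rb and Csf2rb2 of the receptors for GM-CSF and related cytokines.

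Macrophage transcription factors were higher for 10 of 14 genes (71.4%, against 16.3% of all genes) and lower for 1, Bhlhe40 (7.14%, against 16.7%). Tfec, a factor of the MiT family, stood at 12.8 and 5.86 CPM in ductal libraries and 22.6 and 11.7 CPM in stromal libraries and 0 to 0.359 CPM in dendritic cells, with a difference of 8.91 ± 0.59. The call of Tfec on 1 side (edgeR adjusted p = 0.0128) was lost without CD11b+ replicate 1 or 2 or ductal replicate 1 (adjusted p 0.0843 to 0.220). Spic, a factor of iron-recycling macrophages, stood at 158 and 77.2 CPM in ductal libraries and 22.2 and 13.7 CPM in stromal libraries and 0.792 to 4.61 CPM in dendritic cells (difference 4.58 ± 0.26), and its call (adjusted p = 0.0310) was lost without CD103+ replicate 1 or 2, CD11b+ replicate 1 or 2 or stromal replicate 1 (adjusted p 0.0600 to 0.307).

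Lysosomal genes were higher in 30 of 36 cases (83.3%, against 16.3% of all genes) and lower in 2, Psap and Gm2a (median 1.53). Lgmn, the protease legumain, stood at 2376 and 2467 CPM in ductal libraries and 725 and 584 CPM in stromal libraries, and at 93.7 and 119 CPM in CD103+ libraries, 91.3 and 90.1 CPM in CD103- libraries and 127 and 123 CPM in CD11b+ libraries. The libraries of both sides were well apart, ductal macrophages were highest, and the smallest difference was 2.39 (edgeR, same-side adjusted p = 0.00107). The cathepsins were closer. Ctsc, which activates granule proteases, ran over 1841 to 3098 CPM in macrophages and 181 to 727 CPM in dendritic cells. Ctsl ran over 314 to 483 CPM and 44.2 to 106 CPM, and Ctsf over 21.8 to 108 CPM and 1.54 to 8.54 CPM. Their differences of means were 2.85 ± 0.19, 2.2 ± 0.19 and 3.39 ± 0.21 (edgeR adjusted p = 1.53e-06, 1.01e-05 and 8.89e-07). Lgmn, Ctsc, Ctsl, Ctsf and Cd63 passed the same-side test, but 1 of 36 did without ductal replicate 1 or 2 or without CD11b+ replicate 1 or 2, 2 without stromal replicate 1 or CD103+ replicate 2, and 3 without CD103+ replicate 1.

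Lipid and iron genes included some of the highest transcripts. Apoe (gene ID 11816, protein coding, on GRCm38 chromosome 7 from 19696244 to 19701310), the apolipoprotein that carries cholesterol out of macrophages, stood at 40236 and 37329.7 CPM in ductal libraries and 17898 and 9761 CPM in stromal libraries, and at 295 and 181 CPM in CD103+ libraries, 219.8 and 86.6 CPM in CD103- libraries and 115 and 154 CPM in CD11b+ libraries. Ductal macrophages held more of it than stromal ones, and the ratio of the macrophage to the dendritic mean was 150.0 (smallest difference 5.86, edgeR, same-side adjusted p = 0.000796). Trem2, a lipid-sensing receptor, stood at 37.6 and 64.5 CPM in ductal libraries and 70.1 and 50.1 CPM in stromal libraries, and at 0 to 0.688 CPM in dendritic cells (smallest difference 6.31, adjusted p = 0.00105). Slc40a1, the iron exporter ferroportin, stood at 98.4 and 130.3 CPM in ductal libraries and 67.4 and 55.2 CPM in stromal libraries, and at 0.275 to 0.898 CPM in dendritic cells (smallest difference 7.0, adjusted p = 8.36e-05). Blvrb, which reduces biliverdin from heme, ranged over 171 to 461 CPM and 6.14 to 35.7 CPM (difference 4.35 ± 0.22), with a same-side call (adjusted p = 0.00229) lost without CD11b+ replicate 1 (adjusted p = 0.0551). Over the lists, 11 of 15 lipid genes were higher and 1, Fabp5, lower, and 8 of 11 iron and heme genes were higher and 0 lower. The higher shares were 73.3% and 72.7%, against 16.3% of all genes.

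Genes of prostaglandin metabolism stood out singly. Hpgds, the hematopoietic prostaglandin D synthase, stood at 496 and 534 CPM in ductal libraries and 208 and 114 CPM in stromal libraries, and at 6.83 and 4.91 CPM in CD103+ libraries, 3.18 and 8.28 CPM in CD103- libraries and 2.13 and 1.62 CPM in CD11b+ libraries. Hpgd, which inactivates prostaglandins, stood at 131 and 186 CPM in ductal libraries and 275 and 141 CPM in stromal libraries, and at 2.78 and 1.74 CPM in CD103+ libraries, 2.76 and 1.90 CPM in CD103- libraries and 3.44 and 1.44 CPM in CD11b+ libraries. Neither gene had a dendritic library above 8.28 CPM or a macrophage library below 114 CPM, with smallest differences of 4.78 and 5.89 (edgeR, same-side adjusted p = 0.000539 and 0.000244). Of 10 eicosanoid enzymes, 6 were higher (60%, against 16.3% of all genes) and 1, Alox5ap, lower (10%, against 16.7%). Scamp5, a secretory carrier membrane protein, stood at 33.7 to 81.0 CPM in macrophages and 0.407 to 1.44 CPM in dendritic cells (smallest difference 5.02, adjusted p = 0.000126).

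Some secreted proteins also differed between the macrophage types. Selenop, the selenium transport protein, stood at 3555 and 3664 CPM in ductal libraries and 10847 and 5169 CPM in stromal libraries, and at 108 to 351 CPM in dendritic cells (smallest difference 3.58, edgeR, same-side adjusted p = 0.00122). Pf4, the chemokine CXCL4, reached 937 and 808 CPM in stromal but 15.3 and 30.1 CPM in ductal macrophages, and 0.724 to 8.80 CPM in dendritic cells. Ccl12, a ligand of CCR2, showed the same order, at 294 and 224 CPM, 18.2 and 36.5 CPM and 0.181 to 3.95 CPM. Their ductal minus stromal differences were -5.26 ± 0.37 and -3.24 ± 0.37 log2 units (edgeR adjusted p = 5.71e-06 and 0.000103). Ccl12 was called above every dendritic population (adjusted p = 0.00299) but not without CD11b+ replicate 1 (adjusted p = 0.0855). The call of Pf4 (adjusted p = 0.0414) was lost without CD103+ replicate 1 or 2, CD103- replicate 1 or 2, CD11b+ replicate 1 or 2 or ductal replicate 2 (adjusted p 0.0640 to 0.512). Of 18 chemokine ligands, 11 were higher and 4 lower (Ccl5, Ccl17, Ccl22 and Cxcl9). Of 21 growth factors and cytokines, 13 were higher and 3 lower (Pdgfb, Il6 and Il1b). The lower shares were 22.2% and 14.3%, near the 16.7% of all genes, and the higher shares 61.1% and 61.9%, against 16.3%.

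**Figure D5:**
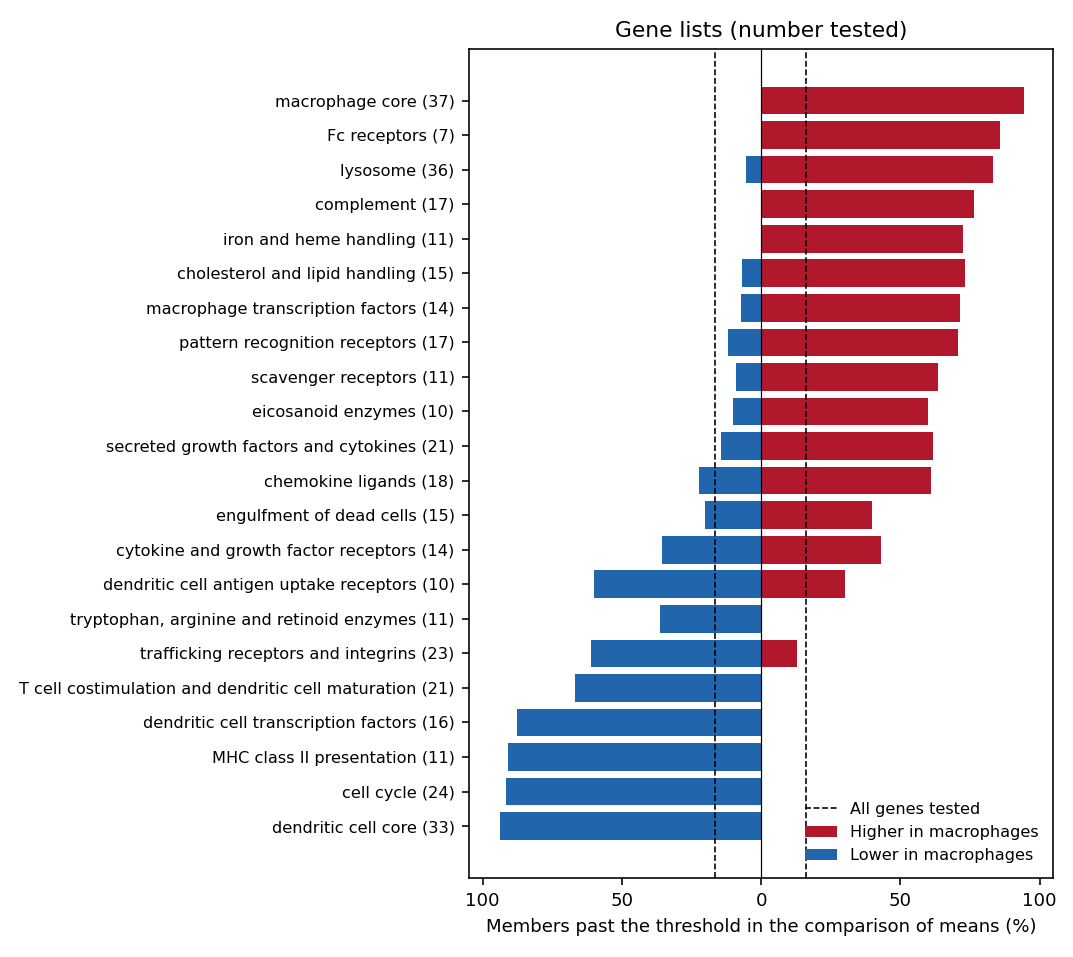
Share of the tested members of each of 22 gene lists called higher (red, right) or lower (blue, left) in the contrast of the macrophage mean with the dendritic mean; dashed lines give the shares over all genes tested, 16.3% and 16.7%. Macrophage core, Fc receptor, lysosome and complement genes stand at the top and dendritic core, cell cycle and MHC class II genes at the bottom; a difference of means does not show that both macrophage types differ.

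The genes below every dendritic population included receptors also known from lymphocytes. Klrk1 (gene ID 27007, protein coding, on GRCm38 chromosome 6 from 129610323 to 129623903), which encodes the activating receptor NKG2D, stood at 2.05 and 0.946 CPM in ductal libraries and 1.38 and 2.14 CPM in stromal libraries, and at 104 and 197 CPM in CD103+ libraries, 155 and 203 CPM in CD103- libraries and 155 and 129.8 CPM in CD11b+ libraries. Every dendritic library was near or above 100 CPM and no macrophage library exceeded 2.14 CPM, with a smallest difference of -6.34 (edgeR, same-side adjusted p = 0.000114). Siglecg, an inhibitory sialic acid receptor, stood at 0 to 1.39 CPM in macrophages and 35.4 to 78.6 CPM in dendritic cells (smallest difference -5.89, adjusted p = 0.00212). Cd226, an adhesion receptor, stood at 0 and 0.189 CPM in ductal libraries and 5.63 and 3.92 CPM in stromal libraries, and at 34.3 and 54.0 CPM in CD103+ libraries, 45.2 and 63.6 CPM in CD103- libraries and 274 and 180.2 CPM in CD11b+ libraries (smallest difference -3.20, adjusted p = 0.00130). Where a population on the lower side had fewer than 4 counts, as for Siglecg, Cd226, Tiam1, Bcl11a, C5ar2 and Tfec, the log2 difference depends on the offset of the fit and the CPM are the better guide. Markers of natural killer cells summed to 1.70 to 4.85 CPM in macrophages and 2.15 to 11.7 CPM in dendritic cells, and their part in these values was not tested.

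Itgb7 (gene ID 16421, protein coding, on GRCm38 chromosome 15 from 102215994 to 102233405), the integrin chain that pairs with CD103, stood at 2.73 and 3.78 CPM in ductal libraries and 7.95 and 10.5 CPM in stromal libraries, and at 562 and 919.8 CPM in CD103+ libraries, 1308 and 806 CPM in CD103- libraries and 303 and 265 CPM in CD11b+ libraries. It was high in dendritic cells with and without CD103, and the ratio of the dendritic to the macrophage mean was 111 (smallest difference -4.94, edgeR, same-side adjusted p = 0.000126). Of 23 trafficking receptors and integrins, 14 were lower in the contrast of means (60.9%, against 16.7% of all genes) and 3 higher (13%, against 16.3%). Itgb7 was the 1 member called on 1 side. A further 4 leading genes below every dendritic population belong to no list. Lsp1, an actin-binding leukocyte protein, stood at 28.5 and 44.1 CPM in ductal libraries and 233 and 140.0 CPM in stromal libraries, and at 1313 to 2522 CPM in dendritic cells (smallest difference -3.29, adjusted p = 0.00177). Tiam1, an activator of the GTPase Rac, stood at 0.228 and 0 CPM in ductal libraries and 4.47 and 7.68 CPM in stromal libraries, and at 48.8 to 72.3 CPM in dendritic cells (smallest difference -3.13, adjusted p = 0.000952). Alcam, the ligand of CD6 on T cells, ranged over 10 to 16.7 CPM and 112 to 196 CPM (smallest difference -3.16, adjusted p = 0.000399). Rab11fip1, a protein of recycling endosomes, ranged over 10.4 to 25.2 CPM and 194 to 351 CPM (smallest difference -3.49, adjusted p = 0.00129).

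The calls of another 4 leading genes were lost with single libraries left out. Septin6, a cytoskeletal GTPase, ranged over 3.46 to 9.33 CPM in macrophages and 60.9 to 268 CPM in dendritic cells; its same-side call (edgeR adjusted p = 0.00250) was lost without ductal replicate 1 (adjusted p = 0.0560). Ramp3, a partner of the calcitonin receptor-like receptor, ranged over 0.110 to 4.73 CPM and 47.1 to 70.9 CPM, and its call (adjusted p = 0.00408) was lost without ductal replicate 1 or 2 (adjusted p 0.0649 to 0.0793). The levels of Wnt11, a Wnt ligand, were 1.10 to 12.3 CPM and 109.9 to 518 CPM, and its call (adjusted p = 0.0233) was lost without CD103+ replicate 1 or 2, CD103- replicate 1, CD11b+ replicate 1 or 2 or ductal replicate 1 or 2 (adjusted p 0.0544 to 0.289). For Nr4a2, an early response transcription factor, the levels were 4.78 to 33.0 CPM and 168 to 319 CPM, and the call (adjusted p = 0.0332) was lost without CD103+ replicate 1 or 2, CD103- replicate 1 or 2, CD11b+ replicate 1 or 2 or ductal replicate 1 (adjusted p 0.0563 to 0.172). Genes induced by tissue dissociation summed to 12205 to 41439 CPM in macrophages and 12664 to 21492 CPM in dendritic cells, highest in the stromal macrophages; their part in the value of Nr4a2 was not tested.

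Of the dendritic cell core genes on 1 side, Jaml, a junctional adhesion molecule, stood at 1.62 to 4.33 CPM in macrophages and 19.6 to 154 CPM in dendritic cells, where CD11b+ cells were lowest (smallest difference -2.68, edgeR, same-side adjusted p = 0.00291). Its call was lost without ductal replicate 2 (adjusted p = 0.0618). Of 16 dendritic transcription factors, 14 were lower (87.5%, against 16.7% of all genes) and 0 higher, and 1, Bcl11a, was called on 1 side.

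Receptors for antigen uptake divided. Cd24a, a glycosylated surface protein, stood at 13.4 and 21.6 CPM in ductal libraries and 64.0 and 108 CPM in stromal libraries, and at 361 to 594 CPM in dendritic cells (smallest difference -2.44, edgeR, same-side adjusted p = 0.00548). Siglech went the other way, although it is best known from plasmacytoid dendritic cells. It stood at 219 and 189.9 CPM in ductal libraries and 104 and 37.0 CPM in stromal libraries, and at 5.88 and 8.47 CPM in CD103+ libraries, 2.21 and 1.67 CPM in CD103- libraries and 0.275 and 0.898 CPM in CD11b+ libraries (difference 6.00 ± 0.34, same-side adjusted p = 0.00408), and was not called without CD103+ replicate 1 (adjusted p = 0.0605). The plasmacytoid markers Bst2 and Tcf4 were higher too, Ccr9 did not pass, and Klk1 was at 0 in all macrophage libraries. The part of plasmacytoid cells was not tested. Over the list, 6 of 10 genes were lower (60%, against 16.7% of all genes) and 3, Clec4a4, Clec10a and Siglech, higher (30%, against 16.3%).

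No gene of the MHC class II list or of the costimulation and maturation list was called by the same-side test. By DESeq2's Wald test 1 gene of each list was called below. A stricter filter on low counts called 1 class II gene below, and no filter called 2 costimulation genes below. Of 11 MHC class II genes, 10 were lower in the contrast of means (90.9%, against 16.7% of all genes, median -1.52) and 0 higher. The stromal libraries lay below all dendritic libraries in 11 of the 11, whereas the ductal libraries lay above all of them in 4 (Cd74, H2-Aa, H2-Ab1 and H2-Eb1), below all in 1 (H2-DMb2) and neither in 6. H2-Ab1, the class II beta chain, stood at 48953 and 45948 CPM in ductal macrophages, above all dendritic libraries (15196 to 29276 CPM), and at 2239 and 1132 CPM in stromal macrophages, below all of them. Ciita, the class II transactivator, stood at 139 and 115 CPM in ductal libraries and 26.7 and 22.8 CPM in stromal libraries and 132 to 206 CPM in dendritic cells. Of 21 costimulation and maturation genes, 14 were lower (66.7%, against 16.7% of all genes) and 0 higher. Cd86, a ligand of CD28, was not called: it stood at 1125 and 1307 CPM in ductal macrophages, 204 and 128 CPM in stromal macrophages and 218 to 635 CPM in dendritic cells. Of 11 tryptophan, arginine and retinoid enzymes, 4 were lower (36.4%, against 16.7% of all genes) and 0 higher. The class II genes named and Cd86 were picked after their values were seen.

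Most cell cycle genes were lower in the macrophage mean, and fewer passed the same-side test (29.2%, against 0.823% of all genes called below). Their CPM over 24 genes summed to 681 and 693 in ductal macrophages, 295 and 416 in stromal macrophages, 1218 and 1360 in CD103+, 1730 and 2179 in CD103-, and 1586 and 1717 in CD11b+ dendritic cells, so that no macrophage library reached the lowest dendritic one. In the contrast of means 22 of 24 genes were lower and 0 higher (median -2.10), and in 18 the libraries of both macrophage types lay below all dendritic libraries, which held for 6.6% of all genes. Ccna2, which encodes cyclin A2, stood at 12.8 and 9.08 CPM in ductal libraries and 3.81 and 4.68 CPM in stromal libraries, and at 50.9 and 60.4 CPM in CD103+ libraries, 90.3 and 134 CPM in CD103- libraries and 83.7 and 74.3 CPM in CD11b+ libraries (smallest difference -2.35, edgeR, same-side adjusted p = 0.00196). Plk1, a mitotic kinase, ranged over 0.662 to 1.82 CPM in macrophages and 10 to 23.5 CPM in dendritic cells, with a difference of -3.81 ± 0.28. Ube2c, which the mitotic ubiquitin ligase uses, ranged over 4.53 to 10.3 CPM and 38.5 to 153 CPM (difference -3.82 ± 0.29). For Birc5, or survivin, the levels were 3.04 to 11.2 CPM and 36.0 to 90.1 CPM (difference -3.03 ± 0.30). In the contrast of means their edgeR adjusted p-values were 2.86e-06, 3.67e-06 and 2.34e-05, and in the same-side test 0.00576, 0.00468 and 0.0454. The same-side calls of Plk1 and Ube2c were lost without ductal replicate 1 or 2. That of Birc5 was lost without replicate 1 or 2 of the CD103+, CD103- or CD11b+ cells or the ductal macrophages. In the same-side test 7 of the 24 passed, but 1 did without ductal replicate 1, 3 without ductal replicate 2 or CD103+ replicate 2, and 4 without either CD11b+ replicate. Ccna2 passed with each library left out in turn.

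Promoters of the genes on 1 side were searched for 6 short motifs, with RefSeq sequences of GRCm38.p6 matched for 88 genes above, 98 below and 11766 of all tested, over the 250 bases before the start on both strands. The ETS and PU.1 site GAGGAAGT was found in 9.09% of promoters of genes above, 3.06% of those below and 3.05% of all. The MiT factor E-box CACGTG was in 14.8%, 8.16% and 9.52%, the MAF site TGCTGA in 23.9%, 15.3% and 15.6%, and the ETS-IRF composite element in 2.27%, 3.06% and 2.48%. The cell cycle element TTTGAA was in 13.6%, 22.4% and 13.5%, and CCAAT in 39.8%, 54.1% and 40% of them. Shown here are 4 windows with GAGGAAGT (or its reverse complement) and 2 with TTTGAA (or its reverse complement), 5′ to 3′ on the strand of the gene, with each match in capitals, to show what was counted. A match is a description of these letters and shows no binding.
C1qc (chr4:136893076-136893135, minus strand, GRCm38.p6): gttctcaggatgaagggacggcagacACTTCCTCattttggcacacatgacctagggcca
Hpgds (chr6:65144746-65144805, minus strand, GRCm38.p6): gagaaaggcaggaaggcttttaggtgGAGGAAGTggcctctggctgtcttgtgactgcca
Ctsc (chr7:88277908-88277967, plus strand, GRCm38.p6): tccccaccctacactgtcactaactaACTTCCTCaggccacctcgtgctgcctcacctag
Tlr1 (chr5:64933559-64933607, minus strand, GRCm38.p6): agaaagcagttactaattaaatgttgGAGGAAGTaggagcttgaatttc
Ube2c (chr2:164769874-164769928, plus strand, GRCm38.p6): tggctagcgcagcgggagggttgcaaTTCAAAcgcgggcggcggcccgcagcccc
Mki67 (chr7:135716464-135716521, minus strand, GRCm38.p6): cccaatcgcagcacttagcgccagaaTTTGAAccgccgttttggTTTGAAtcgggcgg
Within the 250 bases searched, these sites began from 195 bases before the start in C1qc to 23 in Tlr1 among the first 4. They began at 29 in Ube2c and at 116 and 98 in Mki67. Other matches, in genes above and below, are not shown.

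Some large differences of the means were not called by the same-side test. For Btla, Cd8a and Apol7c the macrophage libraries still lay below all dendritic libraries. Adamdec1, a secreted protease, stood at 171 and 161 CPM in ductal but 0 and 2.14 CPM in stromal macrophages, with at most 0.206 CPM in a dendritic library. Ccr7, the receptor that guides cells to lymph nodes, reached 668 and 1235 CPM in CD103+ libraries, 319 and 308 CPM in CD103- libraries and 147 and 92.8 CPM in CD11b+ libraries. It stood at 93.6 and 70.7 CPM in ductal macrophages, close to CD11b+ cells, and was at 0 in both stromal libraries. Ly75, Cd8a and Btla were high in CD103+ and CD103- cells but low in CD11b+ cells. Ly75, the uptake receptor DEC-205, ranged over 43.0 to 112 CPM in the former against 1.99 and 1.44 CPM in CD11b+ cells and 0 to 1.51 CPM in macrophages, and Cd8a, the CD8 alpha chain, over 45.2 to 92.5 CPM against 0.344 and 1.26 CPM and 0 to 0.189 CPM. Btla, an inhibitory receptor, stood at 299 and 462 CPM in CD103+, 284 and 414 CPM in CD103- and 10.9 and 2.69 CPM in CD11b+ cells, and at 0 to 0.924 CPM in macrophages. Apol7c, one of several close copies and so uncertain, stood at 37.8 and 139 CPM in CD103+ libraries, 9.87 and 7.10 CPM in CD103- libraries and 1.10 and 0.718 CPM in CD11b+ libraries and at 0 in all 4 macrophage libraries.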

How the data were processed

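RNA of sorted cells was extracted with an RNeasyPlus kit and TruSeq libraries were read as paired ends, per the labels' protocols. Raw counts per gene were made by the authors with featureCounts on mm10, per the submitters' processing notes; versions, aligner, annotation and use of strand were not given in the sources used here. All 10 tables of single libraries equalled the series table of 27179 Entrez genes, 25275 of which had a RefSeq name; unnamed genes were kept.

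The analysis of the deposited counts used edgeR 4.0.16 under R 4.3.3: filterByExpr (minimum count 10, minimum total 15) left 15681 genes, TMM factors ran from 0.779 to 1.36, and a quasi-likelihood fit over 5 populations had 5 residual degrees of freedom and a common biological coefficient of variation of 0.333. P-values were adjusted by Benjamini-Hochberg over all genes, with calls under 0.05. They measure the spread between 2 biological replicates. The standard error is the absolute log2 difference over the square root of F. The same-side p is the largest of the 6 pairwise p-values where all differences have 1 sign, else 1. Scripts were tested on simulated data.

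The members, gene lists and naming rule were chosen with earlier results of these data known. Named were, in each direction, up to 12 genes of largest smallest difference (non-overlapping libraries, at least 30 CPM in every library of the higher side), up to 4 members per list called on 1 side, 14 fixed lineage and sorting markers, and 6 genes called only in the means. Members of small opposite counts, and those stated as such, were named after their values were seen. Some of the genes named by these rules are not reported here. Alternatives were DESeq2 1.42.0, limma 3.58.1 (voom), glmTreat, other filters and scaling, a fit of 2 groups, a replicate block, and each library left out.

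Replicate numbers were shared between populations, but deviations from the population means correlated at -0.176 to 0.177 between them, so the numbers were not taken as pairs.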

Additional observations from a re-analysis of the deposited data

Results flagged for a closer look

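Among the genes on 1 side of every dendritic population, those listed here also differed between ductal and stromal macrophages in the same fit (edgeR quasi-likelihood, Benjamini-Hochberg adjusted). Of the genes above, 31 were higher and 17 lower in ductal than in stromal macrophages; of the 129 below, 21 were higher and 29 lower.

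Among the leading genes above, the ductal minus stromal difference was 2.09 log2 units for Ms4a7 (adjusted p = 0.00264), 1.36 for C1qa (0.0430), 1.00 for Ms4a4a (0.0462), 1.49 for Apoe (0.0441) and 1.67 for Hpgds (0.00954). Scamp5 went the other way, at -1.05 (0.0227). Among the leading genes below, it was 3.02 for Ramp3 (adjusted p = 0.00324), -2.36 for Lsp1 (0.00110), -1.49 for Itgb7 (0.0189), -5.76 for Tiam1 (0.000167) and -5.43 for Cd226 (0.000694). For Tiam1 and Cd226 the ductal macrophages had 1 count in all, so these 2 values depend on the offset of the fit. Stromal macrophages had 23.1% to 24.8% mitochondrial counts and ductal macrophages 0.631% to 0.891%; the part of this in the differences was not tested.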

How the results depend on the processing

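The contrast of means was the steadier result. With 1 library left out, its direction reversed in 0 of the results for the 69 named genes, counting 1 result per gene and fit. In the other fits, 615 such results kept their direction and side of the threshold and 5 lost their call. The direction reversed for Itgax alone, at 1.59 in the fit of 2 groups, which counts differences between populations as error. That fit also called 1043 genes higher and 887 lower, against 2552 and 2625. With 1 library left out the counts were 1845 to 2584 higher and 1878 to 2890 lower. Testing against a log2 difference of 1 (glmTreat) called 699 higher and 896 lower, and 52 above and 44 below every dendritic population. The same-side counts (129 below, of 232) were 177 and 229 by DESeq2's Wald test, 155 and 215 without a filter on low counts, and 70 below by limma-voom; the cause was not tested. With 1 library left out they ran from 47 to 115 above and from 49 to 171 below. Without mitochondrial genes they were 106 and 127. Of 52 named genes on 1 side, 27 stayed called with each library left out. Depth limits the genes near 0 on the lower side: 3 counts correspond to 0.0665 CPM over the macrophages and 0.028 CPM over the dendritic cells.

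With the replicate block the counts were 89 above, 108 below, 2365 higher and 2414 lower, and the same-side calls of Ctsf (adjusted p = 0.0671) and Pf4 (adjusted p = 0.0639) were lost; the numbers were not taken as pairs.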

Other observations

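The 232 genes included receptors for nucleotides and for lipid mediators, on both sides. The 5 given here were chosen after their values were seen, other such receptors were not counted, and their calls were not followed with single libraries left out. The nucleotide receptors P2ry12, P2ry13 and P2ry6 were above every dendritic population. P2ry12 stood at 42.6 and 48.2 CPM in ductal libraries and 49.5 and 41.2 CPM in stromal libraries, and at 1.08 to 4.21 CPM in dendritic cells, with a difference of the means of 4.29 ± 0.19 log2 units (edgeR adjusted p = 1.57e-07). P2ry6 stood at 119 to 218 CPM and 16.3 to 42.8 CPM, a difference of 2.61 ± 0.16 (adjusted p = 9.59e-07). By contrast Ltb4r1, the high-affinity receptor for leukotriene B4, was below every dendritic population, at 0.911 to 1.66 CPM in macrophages and 23.1 and 38.3 CPM in CD103+ libraries, 41.2 and 17.7 CPM in CD103- libraries and 198 and 231 CPM in CD11b+ libraries. Ptger2, a receptor for prostaglandin E2, stood at 0 to 0.378 CPM and 5.11 to 47.8 CPM. Both were highest in CD11b+ cells.

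Other genes below every dendritic population included Klrd1, which encodes CD94 and lies near Klrk1, at 0 to 0.456 CPM in macrophages and 12.4 to 26.5 CPM in dendritic cells. Spp1, which encodes osteopontin and is often taken as a macrophage gene, stood at 7.06 and 5.86 CPM in ductal libraries and 5.74 and 2.94 CPM in stromal libraries, and at 74.4 and 107 CPM in CD103+ libraries, 141 and 169 CPM in CD103- libraries and 51.4 and 33.9 CPM in CD11b+ libraries. Ahr, the aryl hydrocarbon receptor, stood at 19.6 to 41.9 CPM and 93.3 to 281 CPM, and Srebf2, the regulator of cholesterol synthesis, at 35.3 to 94.2 CPM and 203 to 457 CPM. Sv2b, a vesicle protein, had 0 counts in all 4 macrophage libraries and 9.27 to 25.7 CPM in dendritic cells, at least 264-fold lower in macrophages against a floor of 3 counts over their libraries.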
